A study of Mus musculus with 23 samples.

Results

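The mesenchyme of the embryonic harderian gland was compared with that of the eyelid at embryonic day 16.5 (E16.5), on 3 arrays a side, which were 6 of the 23 arrays of the series. The arrays were chosen by their labels alone, as the 3 replicates titled harderian gland mesenchyme and the 3 titled eyelid mesenchyme. The series measured RNA of mouse tear glands and lids on 1-colour arrays and covered epithelium and mesenchyme of the lacrimal gland, the harderian gland and the eyelid of embryos, and whole adult glands. Every compared sample was total RNA of mesenchymal tissue from E16.5 embryos of the background strain B6/CL. No treatment or altered allele is named in the labels. The eyelid tissue also took in the conjunctiva of the eye, per the series' design text. The 3 arrays of E16.5 lacrimal gland mesenchyme, from embryos of the same strain and age, served as a second gland. The labels do not say how many embryos gave each sample or whether embryos were pooled. A p-value here therefore speaks of scatter among arrays alone, which may be technical. The fit pooled that scatter over all 23 arrays of the series, epithelial and adult ones included. Replicate 1 of each group lay on slide 1, replicate 2 on slide 2 and replicate 3 on slide 3.

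The harderian gland is a orbital gland of many rodents whose oily secretion coats the eye. Its ducts grow from the conjunctival epithelium into periocular mesenchyme, much of it of neural crest origin, and gland mesenchyme in general is a source of growth factors that guide budding and branching. Eyelid mesenchyme gives the dermis and the tarsal tissue of the lid, surrounds the ring muscle that closes it, and lies beneath skin in which hair follicles form.

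Levels below are log2 spot intensity relative to the array, with the 75th percentile of all spots apart from controls at 0. Differences are harderian minus eyelid on the log2 scale, with the standard error of the limma fit. A difference was called at a Benjamini-Hochberg adjusted p under 0.05 over the 16324 genes tested. Where values of 3 arrays are listed, they run from replicate 1 to replicate 3. Where no array of the dimmer tissue showed a gene well above background, the difference is given only as a fold that it reached at least.

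The labels were checked against marker genes. Of 20 mesenchyme markers, 20 were at least 2-fold higher in harderian mesenchyme than in harderian epithelium, and 19 were so in the eyelid pair. Of 42 epithelium markers, 40 and 41 were at least 2-fold lower in the mesenchyme of the harderian gland and of the eyelid. Between the mesenchymes, the general markers Vim (vimentin), Pdgfra and Col1a1 gave differences of 0.05, -0.22 and -0.13, none of them called. Of all 20 markers 4 were higher in the harderian gland, among them Fap (1.95), Pdgfrb (1.20) and Fbn1 (1.0), and 3 were lower, among them Twist2 (-4.29) and Thy1 (-2.23). Epithelial RNA was not equally low on both sides. The summed linear level of the 42 epithelium markers, in multiples of the array's 75th percentile, was 30.8 to 62.0 in harderian mesenchyme and 204 to 474 in eyelid mesenchyme, where replicate 3 was highest, against 2709 to 2973 in eyelid epithelium. A gene is therefore marked below as brighter in epithelium where the epithelium of the tissue with the brighter mesenchyme lay at least 1 log2 unit above that mesenchyme.

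Between the mesenchymes, 1816 genes (11.1% of those tested) were higher in the harderian gland and 1838 (11.3%) were lower. Every count for a gene list below is to be read beside these shares. The larger differences lay on the eyelid side, with 815 genes at least 2-fold higher and 1389 at least 2-fold lower in the harderian gland, and 280 and 744 at least 4-fold. The mark for brighter epithelium fell on 695 of the lower genes (37.8%) and on 48 of the higher ones (2.64%), which left 1143 lower and 1768 higher genes without it. The groups did not overlap for 7414 genes (45.4% of those tested), among them 3600 of the 3654 called. The 3 slides, taken singly, gave the same direction for 3639 of the called genes, which the lack of overlap fixed in advance for 3600 of them. With the replicate number as a block over the 18 embryonic arrays, the calls rose to 3936 higher and 2958 lower. A fit of the 6 compared arrays alone called 2465 higher and 2140 lower. The higher count was 1200 without harderian replicate 3 and 921 with each array scaled by its median.

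**Figure D1:**
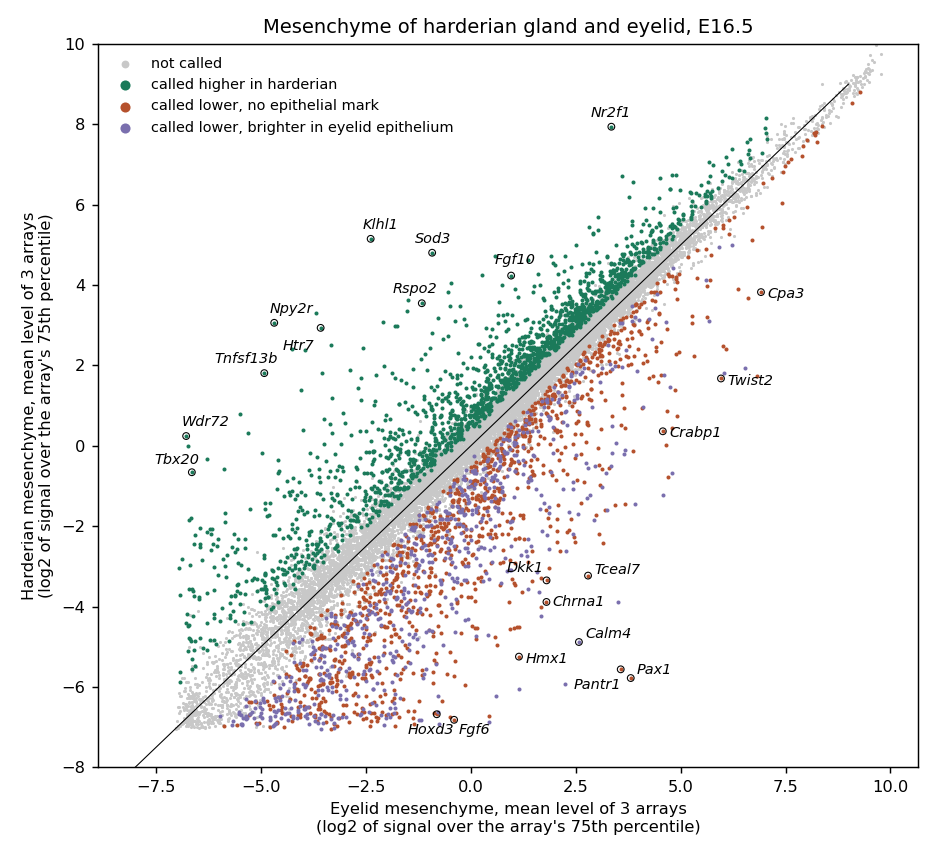
Mean level in eyelid mesenchyme (x axis) against harderian mesenchyme (y axis) for the 16324 genes tested, both in log2 relative to the array's 75th percentile, with 3 arrays a mean. Grey points were not called, green points were higher in the harderian gland, rust points were lower, and purple points were lower and brighter in eyelid epithelium; the purple points make up 695 of the 1838 lower genes and the named genes stand far from the diagonal.

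The genes with the largest excess in harderian mesenchyme included receptors and transporters for nerve transmitters. Npy2r, which encodes the Y2 receptor for neuropeptide Y, lay at 2.86, 3.19 and 3.13 in the harderian gland and at -4.45, -6.04 and -3.57 in the eyelid, where 1 array showed it above background. All harderian arrays stood far above all eyelid arrays, and the difference was 7.75 ± 0.59 (limma, adjusted p = 2.25e-08). A further probe of the gene gave 6.66. The lacrimal mesenchyme held Npy2r at 3.26, 3.40 and 3.36, close to the harderian level, with a harderian minus lacrimal difference of -0.28 that was not called.

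Klhl1, a kelch-like gene best known from neurons, reached 4.97, 5.08 and 5.40 in the harderian gland against -2.74, -2.41 and -2.02 in the eyelid. Here the lacrimal mesenchyme sided with the eyelid, at -1.16, -1.34 and -1.14. The difference from the eyelid was 7.54 ± 0.71 (adjusted p = 3.02e-07), and that from the lacrimal gland was 6.36 and also called. Htr7, a serotonin receptor, had the same order of tissues. Its levels were 2.82, 2.81 and 3.17 in the harderian gland, -3.43, -3.90 and -3.41 in the eyelid, and -3.02, -2.86 and -3.11 in the lacrimal gland, with a difference of 6.51 ± 0.70 from the eyelid (adjusted p = 1.57e-06) and of 5.93 from the lacrimal gland.

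Slc6a2, the noradrenaline transporter, and Tbx20, a T-box factor of heart development, were well above background on all harderian arrays and on no eyelid array. Slc6a2 lay at -0.49, -0.33 and -0.18 in the harderian gland and was at least 20.7-fold higher than in the eyelid (adjusted p = 3.99e-09). Tbx20 lay at -0.85, -0.63 and -0.49, at least 16.5-fold higher (adjusted p = 8.29e-08). No lacrimal array showed either gene above background, and the harderian levels were at least 33.1-fold (Slc6a2) and 26.4-fold (Tbx20) higher than the lacrimal ones, both called.

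The other genes of this size were of several kinds. Tnfsf13b, which encodes a survival factor for B cells, was at least 91.5-fold higher, Folh1, a glutamate carboxypeptidase, at least 45.3-fold, the cadherin Cdh18 at least 32.5-fold and Wdr72 at least 30.9-fold. Brinp3 differed by 7.01, Lingo2 by 6.33, the anion exchanger Slc26a7 by 5.85, the extracellular superoxide dismutase Sod3 by 5.73 and Cntnap2 by 5.43. The lens crystallin gene Cryge was at least 26-fold higher than in the eyelid, though its family holds close copies that a probe may not separate, and it was lower than in the lacrimal mesenchyme by 2.11. Among these 15 genes, 9 were also called higher in the harderian than in the lacrimal mesenchyme, 1 was lower and 5 were not called; over all genes, 14.3% were called in that comparison, which uses the same harderian arrays.

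On the eyelid side, patterning genes stood first. Pax1, a paired-box factor of the pharyngeal pouches and the spine, lay at 3.49, 3.91 and 4.04 in the eyelid and at -6.13, -4.97 and -6.23 in the harderian gland, where no array showed it above background. It was at least 381-fold lower in the harderian gland (adjusted p = 5.38e-10). In the lacrimal mesenchyme it lay between both, at -0.42, -0.26 and -0.74.

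Pantr1, a noncoding transcript next to the gene of the POU factor Pou3f3, read 3.11, 3.58 and 4.03 in the eyelid. Its harderian levels were -6.07, -3.95 and -6.66, with 1 of these arrays above background. The difference was -9.13 ± 0.83 (adjusted p = 2.12e-07), and Pou3f3 itself was at least 11.7-fold lower (adjusted p = 1.14e-09). Hmx1, a homeobox gene known from the development of the eye and the outer ear, read 0.96, 1.15 and 1.33 in the eyelid and -5.24, -4.04 and -6.46 in the harderian gland, a difference of -6.39 ± 0.55 (adjusted p = 1.11e-07). Pax1, Pantr1 and Hmx1 were all called lower in the harderian than in the lacrimal mesenchyme as well, Pax1 at least 19.5-fold, Pantr1 by 5.37 and Hmx1 by 3.52.

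The 15 named deficits leave out genes known only by a clone or model name. Many of the others were genes of muscle, bone, mast cells and hair. Muscle genes were Mybph, Chrna1, Actn2, Csrp3, Ttn, the chaperone Hspb3 (at least 25.1-fold lower) and Fgf6, a fibroblast growth factor of muscle (at least 20.9-fold lower). Ibsp, the bone sialoprotein, was at least 17.1-fold lower, the hair keratin Krt33b at least 15.1-fold, the homeobox gene Hoxd3 at least 15.7-fold, the mast cell protease Mcpt2 by 5.66 and Tceal7 by 6.02. Krt33b was 0.97 brighter in eyelid epithelium than in eyelid mesenchyme, just under the mark. Of these 15 genes, Tceal7, Mybph and Chrna1 were called higher than in the lacrimal mesenchyme, where no array showed them above background (at least 4.44-fold for Tceal7 and 2.57-fold for Mybph, with no bound for Chrna1), 3 were lower there too and 9 were not called.

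**Figure D2:**
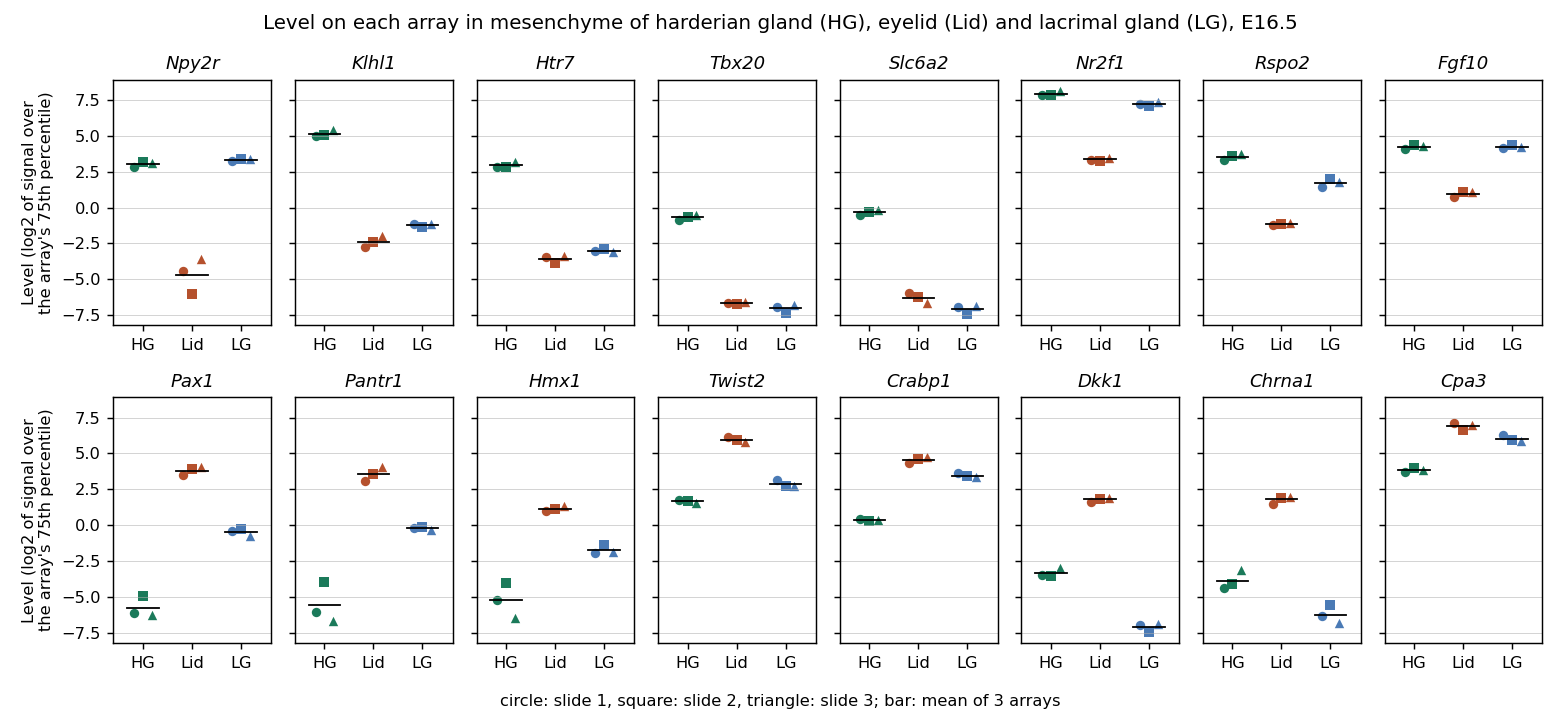
Level of 16 genes in every array (y axis, log2 relative to the array's 75th percentile) in harderian, eyelid and lacrimal mesenchyme at E16.5; circles, squares and triangles are slides 1, 2 and 3 and the bar is the mean of 3 arrays. Harderian and eyelid arrays do not overlap for any of the 16 genes, which for most of them the choice of genes fixed, while the lacrimal arrays lie near the harderian ones for Npy2r (3.26 to 3.40) and near the eyelid ones for Htr7 (-3.11 to -2.86).

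Skeletal muscle genes were lower in harderian mesenchyme as a group. Of 42 measured genes of the contractile apparatus and the muscle membrane, 32 were lower and 0 higher, with a median difference of -3.57 against 0.06 over all genes tested. Of these 42 genes, 5 passed the filter on dim probes only through the eyelid, and 3 were above background on no harderian array. Their summed level was 46.0 to 64.2 in harderian, 43.5 to 47.6 in lacrimal and 366 to 551 in eyelid mesenchyme, so all eyelid arrays lay above all gland arrays. Near-equal sums do not make the glands alike gene by gene. Actc1 (5.38), Tnnt2 (2.88), Tnni1 (1.59) and Trim63 (at least 11.4-fold) were among those called higher in harderian than in lacrimal mesenchyme. Myh2 (-3.21) and Myom1 (-1.13) were called lower there. The medians within slides 1, 2 and 3 were -4.33, -3.23 and -2.89. In bulk tissue, fewer muscle cells and less muscle RNA per cell cannot be told apart.

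The acetylcholine receptor of the muscle endplate was among the clearest. Chrna1, its alpha subunit, read 1.51, 1.92 and 1.98 in the eyelid and -4.38, -4.12 and -3.15 in the harderian gland, a difference of -5.69 ± 0.71 (adjusted p = 9.31e-06). Its delta subunit Chrnd differed by -5.47 ± 0.36 (adjusted p = 4.43e-09). Sarcomere genes followed: Tnni1, the slow troponin I, read 3.22, 2.87 and 3.07 in the eyelid and -2.65, -2.54 and -1.40 in the harderian gland (difference -5.25 ± 0.50, adjusted p = 3.92e-07).

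Replicate 3 was the highest of the harderian arrays for both Chrna1 and Tnni1, as it was for embryonic myosin Myh3. The Myh3 levels were -1.61, -1.95 and 1.23 in the harderian gland and 5.22, 4.54 and 4.37 in the eyelid, still without overlap, with a difference of -5.49 ± 1.0 (adjusted p = 0.000486). Mylpf, a fast myosin light chain, was above background on no harderian array and at least 6.0-fold lower (adjusted p = 7.32e-05). The difference of Actc1, cardiac actin, was -5.07, a call that was lost without harderian replicate 1. Desmin (Des), which smooth muscle also makes, differed by -1.33 and was not called.

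Among 19 measured regulators of muscle, of which 3 passed the filter on dim probes only through the eyelid, 11 were lower and 0 higher, with a median of -1.08. Myod1, the master factor of the myogenic programme, read 0.11, 0.14 and 0.11 in the eyelid and -5.37, -4.82 and -4.22 in the harderian gland (difference -4.92 ± 0.58, adjusted p = 4.75e-06). The fusion peptide gene Mymx differed by -5.12, Myog by -4.71, Vgll2 by -4.44, Msc by -3.49, and the satellite and progenitor cell factors Pax7 and Pax3 by -2.87 and -1.08. Myog, Vgll2, Msc, Pax7 and Pax3 were nonetheless called higher in the harderian than in the lacrimal mesenchyme. Pax3 was higher there by 4.85, while the others were above background on no lacrimal array, with bounds of at least 12.7-fold for Myog, 7.82-fold for Vgll2 and 4.22-fold for Msc and none for Pax7. The values of Eya1 (0.24) and Met (0.03), which like Pax3 also act outside muscle, were not called. Which cells made the Pax3 RNA was not tested.

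Many of these contractile genes carry the letters CAGCTG, an E-box of the form that myogenic factors such as Myod1 bind, near their starts. The letters are the same on both strands. RefSeq promoter windows from 250 bases before to 50 bases after the start (build GRCm38.p6) were on hand for 35 of the 43 listed contractile genes, and 19 of these (54.3%) held the letters, against 18.3% of the 27025 genes in the table. None of the 11 muscle regulators with a window held them (0 of 11). In other lists they were held by 4 of 8 genes that the Wnt pathway induces, 5 of 14 pigment cell genes and 1 of 10 hedgehog genes. A share above that of all genes was therefore not particular to the contractile genes. A match is a description of the letters and not a measured site. The promoters of 4 genes with large differences, chosen after their values were seen, are shown over the 120 bases before the start, 5′ to 3′ on the gene's strand, with CAGCTG in capitals. They are chr2:73580339-73580458 on the minus strand for Chrna1, and on the plus strand chr1:134193328-134193447 for Mybph, chr1:135799301-135799420 for Tnni1 and chr7:127211488-127211607 for Mylpf.
Chrna1: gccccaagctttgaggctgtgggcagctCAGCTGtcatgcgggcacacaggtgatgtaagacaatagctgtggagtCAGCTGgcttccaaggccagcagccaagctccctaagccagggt
Mybph: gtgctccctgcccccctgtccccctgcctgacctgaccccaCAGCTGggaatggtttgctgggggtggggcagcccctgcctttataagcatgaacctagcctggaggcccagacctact
Tnni1: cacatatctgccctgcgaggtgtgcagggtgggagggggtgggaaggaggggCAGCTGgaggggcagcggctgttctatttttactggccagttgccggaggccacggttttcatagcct
Mylpf: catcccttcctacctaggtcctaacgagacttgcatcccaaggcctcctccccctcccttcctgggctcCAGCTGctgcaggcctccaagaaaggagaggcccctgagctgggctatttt
The first letter of the motif lay 92 and 44 bases before the start of Chrna1, 79 before that of Mybph, 68 before that of Tnni1 and 51 before that of Mylpf. The Chrna1 window was the only one of these 4 with the letters at 2 places.

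Tendon and bone genes were also lower in part. Scx, the factor that specifies tendon cells, read 2.78, 3.19 and 3.43 in the eyelid and -0.47, -0.55 and -0.73 in the harderian gland, a difference of -3.72 ± 0.35 (adjusted p = 3.75e-07). Mkx (-3.64) and Tnmd (-3.43) were lower too, so that 4 of 5 tendon markers were called lower and Fmod (0.36) was not called. Mkx was also lower in the harderian than in the lacrimal mesenchyme (-3.19), whereas Scx was higher (2.04). Of 17 bone genes, 3 passed the filter only through the eyelid and 4 were above background on no harderian array; 7 were lower, 2 of them brighter in epithelium, and 1 was higher. Spp1, osteopontin, was at least 9.78-fold lower, while Sp7, the factor of committed osteoblasts, was not called (0.58).

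Cartilage genes were divided. Hapln1, which links hyaluronan to proteoglycans, stood at 3.03, 2.92 and 3.03 in the harderian gland and at -1.47, -2.01 and -1.93 in the eyelid (difference 4.80 ± 0.50, adjusted p = 1.18e-06), while aggrecan (Acan) was lower by 1.49. Of 18 cartilage genes 4 were higher and 6 lower, against 11.1% and 11.3% of all genes tested. The lower count fell to 1 without harderian replicate 3 and to 3 without eyelid replicate 3.

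Transcription factors of face and orbit separated the mesenchymes in both directions. Of 72 measured, 14 were higher and 26 lower in the harderian gland, 6 of the lower ones being brighter in epithelium, around a median of -0.08; 5 of the 72 passed the filter only through 1 compared tissue. Nr2f1, a nuclear receptor of neural crest and eye development, had levels of 7.82, 7.87 and 8.13 in the harderian gland and of 3.34, 3.27 and 3.44 in the eyelid. The arrays of each tissue lay close together and far from those of the other, with a difference of 4.59 ± 0.46 (adjusted p = 7.23e-07). The lacrimal mesenchyme, at 7.21, 7.11 and 7.39, was not called apart from the harderian one.

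Gata6 was higher by 3.97 ± 0.48, the craniofacial homeobox genes Alx1, Barx1 and Gsc by 2.63, 2.28 and 2.03, Foxp2 by 2.60, Ebf3 by 2.59, and Osr1 and Eya2 each by 1.86. Of these, Alx1, Foxp2, Osr1 and Eya2 were also called higher in the harderian than in the lacrimal mesenchyme, and Barx1 lower. Twist2, a factor of dermal fibroblasts, ran the other way, at 6.13, 5.96 and 5.79 in the eyelid against 1.78, 1.69 and 1.56 in the harderian gland (difference -4.29 ± 0.48, adjusted p = 2.64e-06).

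Lhx2 was lower by 5.34, Foxd1 by 4.27, Irx1 by 4.17, Foxd2 by 4.07 and Tbx15, a factor of skin and skeleton, by 3.07. Isl1 was at least 15-fold lower and Hand2, a factor of jaw and limb, at least 6.80-fold. Several factors tied to periocular mesenchyme gave small differences that were not called: Foxc1 (0.69), Foxc2 (0.30), Foxl2 (0.42), Lmx1b (0.15) and Tfap2b (-0.11).

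Hox genes, which mark positions along the trunk and are mostly silent in the anterior head, were measured for 19 of 39 listed genes. Of these, 12 were above background on no harderian array and 4 passed the filter on dim probes only through the eyelid, so that many differences are bounds. The fit called 13 lower in harderian mesenchyme and 0 higher, with a median of -2.67, or -1.04 with genes not above background taken at their bound, or at 0 where none can be given, and 6 of the 13, among them Hoxc4, Hoxc13, Hoxb2, Hoxa2 and Hoxc5, were brighter in eyelid epithelium. Hoxc5 was above background on no array of either mesenchyme and Hoxa2 on 1 eyelid array alone. The unmarked ones were mainly of the HoxD cluster. Hoxd8 read 1.90, 1.96 and 1.77 in the eyelid and -2.10, -1.84 and -2.03 in the harderian gland (difference -3.87 ± 0.48, adjusted p = 7.71e-06). Hoxd4 was lower by 4.16, and Hoxd9, Hoxd3, Hoxd1 and Hoxd10 were at least 18.7-fold, 15.7-fold, 8.45-fold and 4.75-fold lower. None of the HoxD genes named here differed by a call between the harderian and the lacrimal mesenchyme. Hoxd9, Hoxd3, Hoxd1 and Hoxd10 were above background on no array of either gland, so for them the missing call cannot show likeness.

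**Figure D3:**
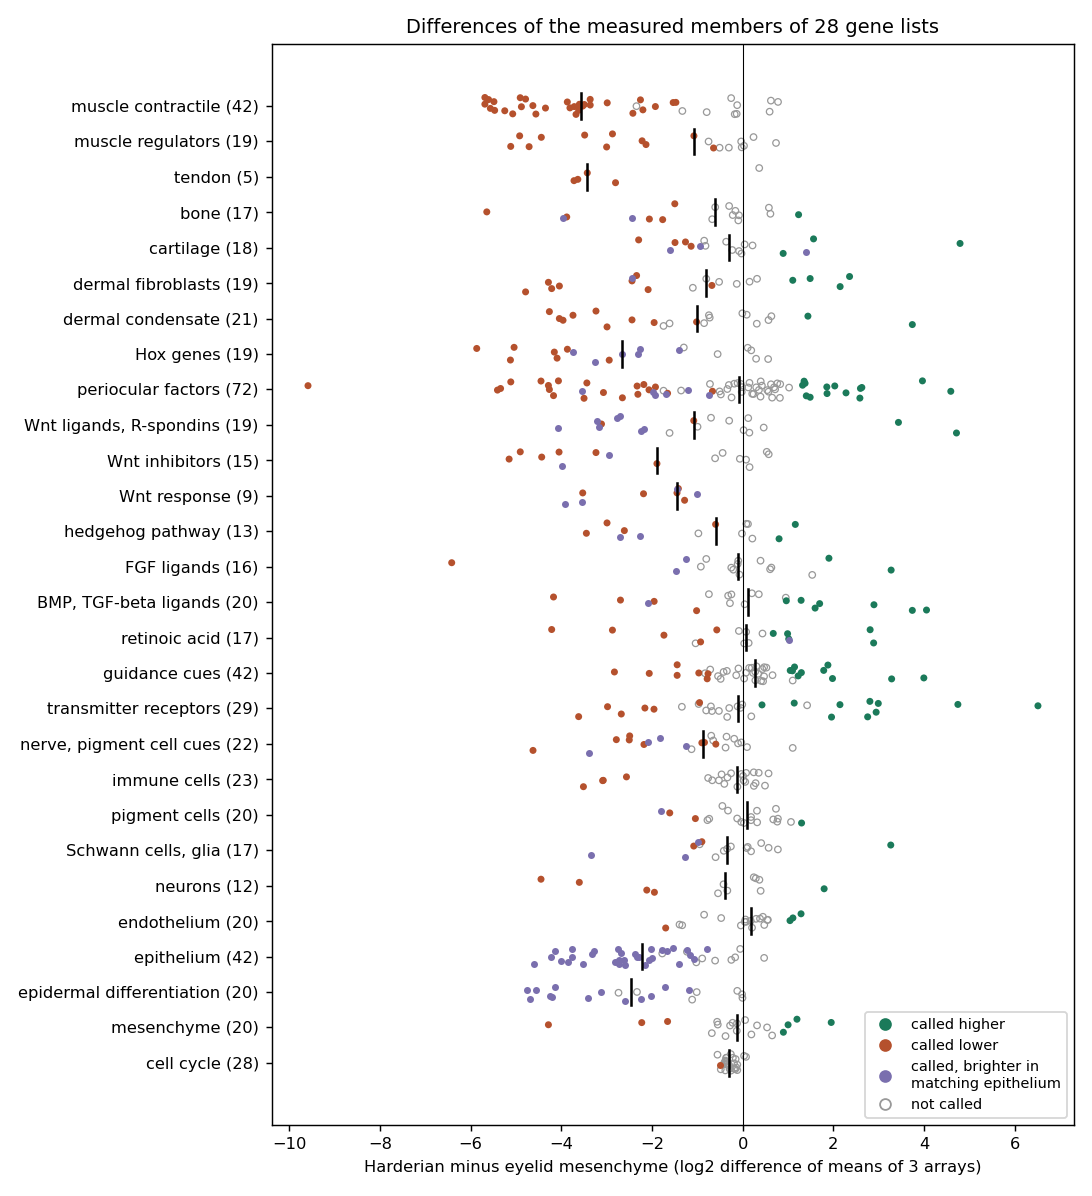
Harderian minus eyelid difference (log2, x axis) of each measured gene in 28 gene lists (y axis), with the median of each list as a bar. Most genes of the contractile muscle list (median -3.57) lie to the left of 0, as do those of the Hox list (-2.67), of which 12 of 19 were above background on no harderian array, while lists such as the transcription factors (-0.08) spread to both sides.

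Some signals that act on epithelium differed as well. Fgf10, the mesenchymal ligand on which budding of the lacrimal gland depends, read 4.06, 4.39 and 4.26 in the harderian gland and 0.71, 1.1 and 1.07 in the eyelid. All harderian arrays were above all eyelid arrays, with a difference of 3.28 ± 0.71 (adjusted p = 0.00214). The lacrimal mesenchyme held it at 4.17, 4.34 and 4.19, with a harderian minus lacrimal difference of 0.00. Fgf7, a related ligand, differed by 0.63 and was not called. Fgfr3 was higher by 2.49 and Fgfr4, a receptor also made by muscle precursors, lower by 2.40. Of 16 FGF ligands, 2 were higher (Fgf10 and Fgf12) and 3 lower, 2 of these brighter in epithelium. Over all genes tested, 11.1% were higher and 11.3% lower. A further probe of Fgf14, dimmer than the one used, gave 4.80 and was above background on 3 harderian and 0 eyelid arrays. With the replicate block the counts of higher and lower ligands were 4 and 5.

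Among genes of the Wnt pathway, the ligands and agonists called higher in the harderian gland were Rspo2, an agonist that raises Wnt receptor levels, and Wnt2b. Rspo2 stood at 3.31, 3.61 and 3.72 in the harderian gland and at -1.24, -1.17 and -1.10 in the eyelid (difference 4.72 ± 0.85, adjusted p = 0.00041), and Wnt2b was higher by 3.44. Of 19 measured ligands and agonists, 2 were higher and 9 lower, of which 7 were brighter in epithelium, among them Wnt10a (-4.08), Wnt6 (-3.22) and Wnt4 (-3.18). The unmarked lower ones were the agonist Rspo1 (-3.12) and Wnt5a (-1.08).

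Secreted or membrane inhibitors of the pathway were lower in 8 of 15 cases and higher in 0, with a median of -1.89, 2 of the 8 being brighter in epithelium. Dkk1, which blocks the Wnt co-receptor, read 1.65, 1.85 and 1.92 in the eyelid and -3.48, -3.57 and -2.99 in the harderian gland, with a difference of -5.15 ± 0.76 (adjusted p = 5.42e-05). No lacrimal array showed it above background, and it was at least 4.09-fold higher in the harderian than in the lacrimal mesenchyme, which was called. Sfrp5 (-4.91), Sfrp4 (-4.43), Apcdd1 (-4.05 ± 0.24), Wif1 (-3.24) and Dkk2 (-1.89) were the others without the mark. Wif1, which binds Wnt proteins, was at least 56.9-fold higher than in the lacrimal mesenchyme, where no array showed it above background.

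All 9 measured genes that the pathway commonly induces were lower in the harderian gland, with a median of -1.45, and 4 of them were brighter in eyelid epithelium, including Lef1 (-3.92) and Tnfrsf19 (-3.55). Among those without the mark were Tcf7 (-3.53), Sp5 (-2.19), Nkd2 (-1.45) and Axin2 (-1.42), of which Axin2 lost its call under quantile normalization and under median scaling. Sp5, at the same time, was at least 30.1-fold higher than in the lacrimal mesenchyme, where it was not above background, so the order of the tissues was not that of gland against lid.

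Hedgehog signalling is read through Gli1, Ptch1 and Hhip, which the pathway itself induces. Gli1 stood at 3.81, 3.06 and 3.21 in the eyelid and at 0.75, 0.67 and 0.82 in the harderian gland (difference -2.61 ± 0.37, adjusted p = 3.67e-05). Ptch1, the receptor, differed by -2.99 ± 0.33 (adjusted p = 2.08e-06) and the decoy Hhip by -3.45, with no overlap of arrays for either. The transducers Gli2 (0.12), Gli3 (-0.02) and Smo (0.21) were not called. The ligand Shh was lower but brighter in eyelid epithelium, and was above background on 2 eyelid arrays and on no harderian array. Ptch1 came just under that mark at 0.98. In all, 6 of 13 pathway genes were lower and 2 higher, with Disp1, which releases the ligand, among the latter (1.16). The higher count was 1 without eyelid replicate 2 or eyelid replicate 3.

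**Figure D4:**
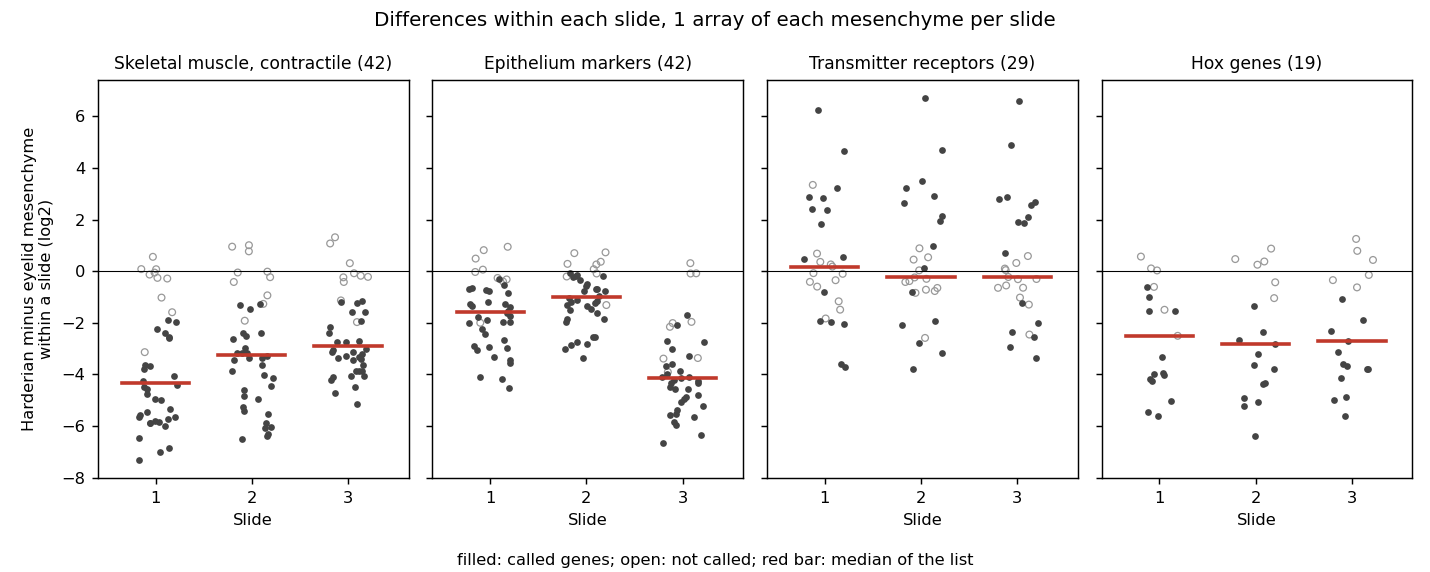
Harderian minus eyelid difference (log2, y axis) within each of the 3 slides (x axis), where each point is a gene of the contractile muscle, epithelium marker, transmitter receptor or Hox list (filled where called, open where not) and the red bar is the median. The epithelium markers had medians of -1.59, -0.99 and -4.13 on slides 1, 2 and 3, while the contractile muscle medians were -4.33, -3.23 and -2.89.

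BMP and related ligands differed in both directions. Gdf5, a ligand of joints and tendon, read 1.80, 1.97 and 2.20 in the harderian gland and -2.43, -2.11 and -1.66 in the eyelid, with a difference of 4.06 ± 0.21 (adjusted p = 1.4e-10). Bmp3 was higher by 3.74 ± 0.34, Gdf6 by 2.90, Gdf7 by 1.70, Bmp5 by 1.60 and Gdf11 by 1.29. Bmp3, Gdf6 and Bmp5 were also called higher than in the lacrimal mesenchyme, Bmp3 by 2.99, Gdf6 at least 16.3-fold and Bmp5 at least 5.83-fold, and Gdf5 was not called there (-0.61).

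Lower in the harderian gland were Inhbb, a subunit of activin (-4.17 ± 0.23), Bmp7 (-2.70), Bmp4 (-1.95) and Bmp2 (-2.09), the last of them brighter in epithelium and Bmp7 just under the mark at 0.91. Bmp4 was nevertheless 2.88 above the lacrimal mesenchyme. Over 20 ligands, 7 were higher and 5 lower, against 11.1% and 11.3% of all genes tested. The extracellular modulator Bmper was higher by 2.58. Smad9, a transducer of the BMP branch, was higher by 2.27.

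The retinoic acid pathway differed at several steps. Aldh1a2, which makes retinoic acid, lay at 4.60, 4.67 and 4.88 in the harderian gland and at 2.03, 1.80 and 1.89 in the eyelid (difference 2.81 ± 0.55, adjusted p = 0.000935). Rarb, a receptor that retinoic acid itself induces in many tissues, was at 3.73, 3.38 and 3.59 against 0.68, 0.50 and 0.86 (difference 2.89 ± 0.23, adjusted p = 5.07e-08), and Rara was higher by 1.02. Opposite to these were Crabp1, which binds retinoic acid inside cells, and Cyp26b1, which breaks it down.

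Crabp1 read 4.36, 4.63 and 4.74 in the eyelid and 0.40, 0.31 and 0.37 in the harderian gland, a difference of -4.21 ± 0.62 (adjusted p = 5.54e-05). Cyp26b1 was lower by 2.87 and the synthesis enzyme Aldh1a1 by 1.74. Crabp1 was also lower than in the lacrimal mesenchyme, by 3.10, whereas neither Aldh1a2, Rarb nor Cyp26b1 was called there. Of 17 genes in the pathway list 6 were higher and 5 lower, and 3 and 3 under median scaling.

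Genes of the dermis and of the hair follicle base were among the eyelid genes. Dpt, a matrix protein of dermal fibroblasts, read 3.53, 3.01 and 3.05 in the eyelid and -1.63, -1.51 and -1.64 in the harderian gland (difference -4.79 ± 0.70, adjusted p = 4.78e-05). Of 19 dermal fibroblast genes, 9 were lower, including Trps1 (-4.04 ± 0.18) and Prdm1 (-2.44), and 4 were higher, including Mfap5 (2.15). The higher count was 2 without eyelid replicate 2 or eyelid replicate 3. The widely made proteoglycans Dcn (-0.13) and Lum (0.32) were not called.

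The dermal condensate is the cluster of fibroblasts under each hair bud. Of its 21 listed genes, 3 of which passed the filter only through 1 compared tissue, 9 were lower and 2 higher (5 higher with the replicate block), with Hey2 lower by 3.74 and Sox2, above background on no harderian array, at least 3.68-fold lower. Among matrix genes, 10 of 42 were higher and 13 lower, against 11.1% and 11.3% of all genes tested. Of the 13 lower ones, 3 were brighter in epithelium. Versican (Vcan) stood out by its small error, at 5.32, 5.17 and 5.32 in the harderian gland against 3.01, 2.93 and 2.78 in the eyelid (difference 2.36 ± 0.15, adjusted p = 3.79e-09). The basement membrane protein Nid2 was higher by 2.19 and Matn2 by 1.39, while Egfl6 (-3.45), Aspn (-3.00), Spon1 (-2.52) and the tenascin Tnn (at least 8.58-fold) were lower.

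In a wider list of transmitter receptors and their partners, Htr7 included, 10 of 29 genes were higher and 6 lower, 4 having passed the filter only through 1 compared tissue. The glutamate receptor subunit Gria4 lay at 3.01, 2.91 and 3.03 in the harderian gland and at -1.65, -1.78 and -1.87 in the eyelid, with a difference of 4.75 ± 0.45 (adjusted p = 3.82e-07). Grm8 (2.99), Grm7 (2.94), the kainate receptor Grik1 (2.15) and its partner Neto1 (2.76) were higher too, and the muscarinic receptor Chrm2, through which parasympathetic nerves act, was at least 2.82-fold higher. Lower were Htr2b (at least 5.11-fold), Grik3 (at least 3.34-fold) and Adra2a (-2.16). The median over the list was -0.11.

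Cues that attract or sustain nerves and pigment cells pointed to the eyelid, with 12 of 22 lower in the harderian gland, 0 higher and 4 of the 12 brighter in epithelium. Gdnf, which sustains several kinds of neurons and is also made by muscle, read -0.31, -0.54 and -0.66 in the eyelid and -6.03, -4.97 and -4.39 in the harderian gland (difference -4.63 ± 0.38, adjusted p = 6.09e-08). Nrg1 (-2.79), the Gdnf receptor Gfra1 (-2.49) and Ntf3 (-2.18) were lower without the mark. The summed level of neuron markers was 24.5 to 37.8 in harderian and 40.8 to 52.0 in eyelid mesenchyme, and its part in these results was not tested.

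Mast cell genes were the part of the immune list that differed. Cpa3, the carboxypeptidase of mast cells, stood at 7.11, 6.64 and 7.00 in the eyelid and at 3.70, 3.96 and 3.82 in the harderian gland, with a difference of -3.09 ± 0.88 (adjusted p = 0.016). Mcpt4 (-3.51), Cma1 (-3.08) and Tpsb2 (-2.56), all proteases of the same cells with related sequences, were lower as well. They were the 4 lower genes among 23 immune genes, of which 0 were higher, against 11.3% lower and 11.1% higher of all genes tested. A fit of the 6 compared arrays alone called 7 immune genes lower. The macrophage genes C1qa (0.25) and Csf1r (0.35) and the common leukocyte gene Ptprc (0.01) were not called.

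Of 20 pigment cell genes 1 was higher and 3 lower, against 11.1% higher and 11.3% lower of all genes tested, with a median of 0.11. With the replicate block the counts were 3 and 5, and without harderian replicate 1, 2 or 3 or eyelid replicate 1 or 3 the higher count was 0. Dct, an enzyme of melanin synthesis, read 6.17, 5.57 and 5.99 in the harderian gland and 5.62, 5.39 and 5.76 in the eyelid, which overlapped, and the difference of 0.32 was not called. In the lacrimal mesenchyme it read 1.08, 0.63 and 1.02, and the harderian minus lacrimal differences of Dct (5.0), Tyrp1 (6.07) and Pmel (4.61) were all called. Kit, the receptor that pigment cells and mast cells share, was lower in the harderian gland by 1.61.

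Genes brighter in epithelium included some of the largest deficits. Calm4 (-7.46) and Dmkn (-7.40), both of the epidermis, and Fam25c, Crct1 and Krtap13 (at least 61.3-fold, 42.0-fold and 37.2-fold) were lower in the harderian gland, and eyelid epithelium held each of them more than 5 log2 units above eyelid mesenchyme. The basal keratin Krt5 read 6.30, 6.03 and 7.27 in eyelid and 2.21, 3.0 and 0.60 in harderian mesenchyme, with a difference of -4.59 ± 0.50 (adjusted p = 1.77e-06). Eyelid replicate 3 was the highest and harderian replicate 3 the lowest. All 33 lower genes among the 42 epithelium markers and all 13 lower among the 20 epidermal ones carried the mark, and how much of any marked gene's difference came from epithelial RNA was not tested.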

How the data were processed

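Each deposited scanner file held 1 array in 1 colour (Cy3), as linear intensity per spot from which the authors' scanner software had taken the background and a spatial trend, per the file headers. That software was Agilent Feature Extraction 11.5.1.1 in the submitters' processing notes, but the headers of slide 1 give 11.0.1.1 and another protocol version. The deposited series matrix held the same intensity averaged per probe (median log2 ratio 0 to the scanner values). On the 6 compared arrays, 53.6% to 61.7% of 59305 spots were well above background, 0 were saturated, 129 to 153 outlier spots were left out and the 75th percentile of intensity was 408 to 719; the number of arrays limits the precision. Replicates within each compared group correlated at 0.9845 or more over the genes tested.

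Spots of a probe were averaged, and log2 intensity minus the array's 75th percentile was used. Probes were named through RefSeq accessions: 27509 of 55681 probes gave 20887 symbols, and the 28172 without a symbol entered no gene count. A probe was kept if at least 0.5 of its spots were well above background on all arrays of at least 1 group, and each gene took its brightest kept probe by the mean over arrays. Another kept probe existed for 65 of the 319 genes that the naming rule picked, with the opposite sign for 1. All 23 arrays in 8 groups were fitted with limma 3.58.1 in R 4.3.3 and tested with Benjamini-Hochberg adjustment at 0.05. The fit was run on simulated data with independent noise for each array. That simulation held no slide effect, so it cannot show how the fit behaves where slides share deviations. Epithelial arrays served for the mark of brighter epithelium and the label check. Like all other arrays, they also entered the filter, the choice of probe and the pooled spread of the fit.

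Genes were named as the up to 15 largest unmarked differences a side without overlap (clone, predicted-gene and LOC names left out), the called members of each list with the largest differences and its defining members, and up to 5 marked genes a side. The comparison, the lists and these rules were chosen with earlier results of these data known. Deviations of harderian and eyelid arrays with the same replicate number correlated at 0.273, 0.355 and 0.192. Those with different numbers correlated at -0.233 to -0.031. Deviations from a group mean cancel out over the arrays of the group, which ties these correlations to each other. The numbers were taken to pair the samples through the shared slide, but the main fit held no slide or replicate block. Fold bounds set the brighter mean against, per array, the higher of the probe's own signal and the lowest signal well above background. Alternatives covered background correction, scaling, the filter, the probe rule, the arrays fitted, the slide as a block and each array left out. Promoter windows came from RefSeq (GRCm38.p6). Figures were drawn with matplotlib 3.10.9.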

Additional observations from a re-analysis of the deposited data

How the results depend on the processing

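Every fit kept the direction of each named gene that it called. Of 319 genes picked by the naming rule, 234 kept their call in each of the 17 refits that measured them. The refit filtered on the compared groups measured only 313 of the 319. Leaving out each array in turn gave 1200 to 1488 higher and 1434 to 1662 lower genes, and 254 of the 319 kept their call in all 6 of these fits. The higher count was 921 with median scaling, 2836 over the 18 embryonic arrays alone and 3936 with the replicate block over those 18 arrays, where the lower count was 2958. The replicate block ended no call among the 319 genes, and the slide as a block over all 23 arrays, with 2634 higher and 2237 lower, ended that of Htr2a. Median scaling, which moved the median difference of all genes from 0.06 to 0.13, ended 57 calls among them, and quantile normalization ended 16. Genes at least 2-fold lower numbered 865 with normexp background correction, which was added after seeing the data because the files hold spot medians and no spot means. The series matrix values gave 1813 higher and 1833 lower genes. The cause of these shifts was not tested. Genes above background on no array of the dimmer tissue have only a bound, which on the harderian side limits 12 of 19 Hox genes, 8 of 72 transcription factors, 6 of 29 transmitter receptors, 4 of 17 bone genes and 3 of 42 contractile muscle genes.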

Other observations

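Guidance molecules, which steer axons and migrating cells, differed in both directions. In harderian mesenchyme 10 of 42 were higher and 7 lower, against 11.1% and 11.3% of all genes tested, with a median of 0.28. The ephrin receptor Epha3 read 4.28, 4.20 and 4.29 in the harderian gland and 0.19, 0.41 and 0.17 in the eyelid, without overlap, a difference of 4.0 ± 0.50 (limma, adjusted p = 8.89e-06). Ntng1 (3.29), the netrin receptor Unc5c (1.98) and the Slit receptor Robo1 (1.88) were higher too. Sema3e was at least 3.67-fold lower and Efna5 lower by 2.06. The lower count was 4 without harderian replicate 1, harderian replicate 3 or eyelid replicate 3, and 11 with the replicate block.

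Steroid-metabolizing genes of the Akr1c cluster, close copies that a probe may not separate, gave 2 higher and 1 lower of 5 measured. Akr1c19 was higher by 4.16 ± 0.62 (adjusted p = 5.85e-05) and Akr1c14 by 2.36, while Akr1c18 was lower by 2.86 and brighter in epithelium. Of 17 Schwann cell and glia genes 5 were lower, 3 of them brighter in epithelium, and 1, S100b, was higher, with a median of -0.34. The shares over all genes tested were 11.3% lower and 11.1% higher. S100b, a calcium-binding protein of glia, cartilage and fat cells, read 3.97, 3.94 and 4.13 in the harderian gland against 1.07, 0.42 and 0.75 in the eyelid (difference 3.27 ± 0.40, adjusted p = 8.43e-06). Of 12 neuron markers 4 were lower and 1 higher, with a median of -0.38. Among the lower ones were Tubb3 (-3.60) and Gap43 (-1.95), and the higher one was the neurofilament gene Nefm (1.80). Of 20 endothelial genes 3 were higher and 1 lower, against 11.1% higher and 11.3% lower of all genes tested. Pecam1 (0.06), Cdh5 (0.45) and Kdr (0.07) were not called. The higher count was 1 without harderian replicate 1 or 2 or eyelid replicate 2 and 0 without eyelid replicate 3. The summed level of these 20 genes was 187 to 211 in harderian and 114 to 171 in eyelid mesenchyme, without overlap. Among 28 cell cycle genes, 1 was lower and 0 higher, with a median of -0.30, and the lower count was 16 with the replicate block.

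Among genes brighter in harderian epithelium, Mia was higher in harderian mesenchyme by 2.25 and Fgl1 by 2.20. Probes without a gene symbol, tested apart, gave 399 higher and 414 lower of 13737.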
